A study of Homo sapiens with 10 samples.

Results

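Chemokine ligands are small secreted or membrane-anchored proteins that attract leukocytes by binding G protein-coupled receptors. The genes examined here were 9 such ligands, chosen by symbol: CXCL1, CXCL2, CXCL3, CXCL5, CXCL8, CXCL16, CCL2, CCL20 and CX3CL1. All 9 were present among the 26256 genes of the table of untreated cells and among the 55736 genes of the table of treated cells, where CXCL8 carries its older symbol IL8 in the files. Of these, 7 had enough reads to be tested in the untreated cells and 6 in the treated cells.

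RNA was sequenced from MCF10A, a non-transformed, immortalized, near-diploid human breast epithelial cell line, and from G12V cells, MCF10A cells into which HRas carrying the G12V mutation was introduced (labelled H-RAS Gv12, n = 2 libraries each). The study describes the G12V cells as resuming growth a few weeks after an initial arrest, and its methods do not say when their RNA was taken. Whether the G12V cells are 1 clone or a pool is not given in the sources used here. A second experiment treated parental MCF10A cells for 4 h with 10 µM Nutlin-3a, a small molecule that frees p53 from MDM2, or with its solvent DMSO (n = 3 libraries each). All 4 groups were grown in the same base medium with EGF at 20 ng/ml, hydrocortisone at 500 ng/ml, horse serum at 5%, insulin and cholera toxin. Every control was thus also exposed to a growth factor and a glucocorticoid. The study made the G12V cells by lentiviral transduction along with a GFP vector and then selected them with hygromycin. No RNA library of vector-only or selected control cells is described, so transduction, GFP and selection cannot be told apart from HRas.

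Ligands with a Glu-Leu-Arg motif before the CXC cysteines, here CXCL1, CXCL2, CXCL3, CXCL5 and CXCL8, bind CXCR2 and attract neutrophils, and CXCL8 also binds CXCR1. CCL2 attracts monocytes through CCR2 and CCL20 attracts CCR6-bearing lymphocytes and dendritic cells. CXCL16 and CX3CL1 are made as transmembrane proteins that proteases such as ADAM10 and ADAM17 release, and they bind CXCR6 and CX3CR1. In epithelial cells many of these genes are switched on by NF-κB and AP-1 downstream of interleukin-1, TNF or Toll-like receptors, and their short-lived mRNAs are cleared by decay factors such as ZFP36 and ZC3H12A.

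Total counts per library ranged from 21538593 to 23683975 in MCF10A, from 22070837 to 23318848 in G12V, from 16402941 to 17378734 in DMSO and from 15453226 to 16756691 in Nutlin-3a. Levels are given as CPM, read counts scaled to a common library size, and a floor of 3 counts corresponds to 0.128 to 0.136 CPM in the untreated libraries and 0.166 to 0.197 CPM in the treated ones, for counting error only. A gene was called when edgeR's quasi-likelihood test gave an adjusted p under 0.05 and the log2 fold change exceeded 0.5 in size. HRAS rose from 72.6 and 65.9 CPM in MCF10A to 631 and 515 CPM in G12V, and after Nutlin-3a the p53 targets CDKN1A and MDM2 rose by 2.16 and 2.54 on the log2 scale. Of 6 epithelial markers, 4 fell in G12V: CDH1 from 200 and 238 CPM to 0.428 and 0.535, KRT14 from 402 and 423 CPM to 0.0855 and 0.134, and EPCAM and KRT5 by 2.84 and 1.96 on the log2 scale. The other 2, KRT8 and KRT18, were not called, with log2 differences of 0.18 and -0.71, though DESeq2 and edgeR's exact test called KRT18 lower. The summed level of 6 leukocyte markers was 18.2 to 37.4 CPM in MCF10A and 21.8 to 39.7 CPM in G12V, nearly all of it CD14, with 2 of the 6 at 0 in every untreated library. In bulk RNA, fewer cells of a type and less RNA per cell cannot be told apart.

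Because several members lie in 1 gene cluster and NF-κB is their textbook regulator, the 140 bases just before the transcription start are printed for the 6 members matched in the RefSeq promoter table (build GRCh38.p14). The windows are chr4:73869253-73869392 (plus strand), chr4:74099196-74099335 (minus strand), chr4:74038690-74038829 (minus strand), chr4:73998678-73998817 (minus strand), chr4:73740429-73740568 (plus strand) and chr2:227813702-227813841 (plus strand), each written 5′ to 3′ along its gene. Capitals mark matches, on either strand, to the κB letters GGAATTTCC or GGGNNTTCC and to the AP-1 letters TGANTCA.
CXCL1: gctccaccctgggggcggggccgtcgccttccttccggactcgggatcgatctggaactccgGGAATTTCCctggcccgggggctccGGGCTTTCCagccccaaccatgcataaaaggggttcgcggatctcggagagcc
CXCL2: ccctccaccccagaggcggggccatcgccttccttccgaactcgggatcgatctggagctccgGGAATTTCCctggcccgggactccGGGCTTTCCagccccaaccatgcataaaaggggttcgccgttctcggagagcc
CXCL3: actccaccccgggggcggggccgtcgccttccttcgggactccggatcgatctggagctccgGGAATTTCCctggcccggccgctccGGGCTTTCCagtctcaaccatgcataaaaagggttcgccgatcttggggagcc
CXCL5: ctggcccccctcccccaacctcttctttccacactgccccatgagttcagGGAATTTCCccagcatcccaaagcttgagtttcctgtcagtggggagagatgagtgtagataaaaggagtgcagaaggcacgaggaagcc
CXCL8: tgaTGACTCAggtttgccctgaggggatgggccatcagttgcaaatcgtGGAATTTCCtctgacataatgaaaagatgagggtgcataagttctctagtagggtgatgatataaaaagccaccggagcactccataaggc
CCL20: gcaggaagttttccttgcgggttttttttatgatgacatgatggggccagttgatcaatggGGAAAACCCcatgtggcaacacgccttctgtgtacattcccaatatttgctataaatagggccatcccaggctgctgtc
The strict κB letters GGAATTTCC stood in 5 of these 6 windows, all but that of CCL20, whose capitals are a minus-strand match to the looser GGGNNTTCC. CXCL1, CXCL2 and CXCL3 each held a second, looser match closer to the start, and CXCL8 was the 1 window with an AP-1 match. In the same 140-base window of 35116 promoters in the table, 0.242% held the strict κB letters, 3.50% the looser letters and 3.92% the AP-1 letters. The promoters of CXCL1 and CXCL2 were 91.5% identical over these windows, CXCL1 and CXCL3 90.7%, and CXCL2 and CXCL3 88.0%, whereas every other pair lay between 44.3% and 53.5%. The letters were chosen for the textbook regulator of these genes, and the near-identical windows of CXCL1, CXCL2 and CXCL3 are not separate cases. The shares are therefore no test of enrichment. These matches describe letters in these windows and say nothing of binding.

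The first comparison asked how introducing oncogenic HRas changed transcription. In G12V cells, 6 of the 7 tested ligands rose over the untreated MCF10A libraries, and none fell past the test. The 6 were the neutrophil attractants CXCL1, CXCL2, CXCL3 and CXCL8, the monocyte attractant CCL2 and the CCR6 ligand CCL20. CXCL8 had the smallest fitted rise, 16.7-fold (interval 9.88 to 28.2, adjusted p = 0.00178, edgeR's quasi-likelihood test). Its interval overlapped those of CXCL1, CXCL2, CXCL3 and CCL20, so its place is not separable from theirs. Without G12V replicate 1 the log2 fold changes of CXCL1 and CXCL2, 3.77 and 3.84, lay below that of CXCL8, 4.37. Parental cells of the other experiment had higher levels of several of these ligands, as given below. Over all 14376 tested genes 11.0% were called, 5.01% higher and 5.95% lower. The filter on low counts asked for 0.441 CPM in as many libraries as a group holds, from either group. A group is said to reach it where all its libraries did. CCL2 and CXCL3 reached it in G12V alone, so their entry into the test leaned on their higher level there. Of the other 5, 4 rose and 0 fell, with a median log2 fold change of 4.32, against -0.0011 over all tested genes. For all 5 the libraries of the groups did not overlap, and 54.8% of all tested genes had that property.

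CXCL1, on the plus strand of chromosome 4 (chr4:74735109-74737019, hg19), gave 37.2 and 20.1 CPM in the MCF10A libraries and 1065 and 391 CPM in the G12V libraries. It was the most abundant ligand in G12V cells, at 728 ± 477 CPM (SD, n = 2) against 28.7 ± 12.1 CPM in MCF10A, and its G12V libraries differed 2.73-fold from each other. The log2 fold change was 4.67 (SE 0.60, adjusted p = 0.00814, edgeR's quasi-likelihood test), with a 95% interval of 3.19 to 6.14.

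CXCL2 (chr4:74962754-74964997, minus strand) rose from 3.50 and 2.33 CPM to 74.5 and 42.0 CPM. CXCL3 (chr4:74902312-74904490, minus strand), a close relative of both, rose from 0.636 and 0.352 CPM to 36.3 and 21.4 CPM. Replicate 1 was the higher library of each group for CXCL1, CXCL2 and CXCL3. The log2 fold changes were 4.32 (SE 0.40, adjusted p = 0.00325, edgeR's quasi-likelihood test) for CXCL2 and 5.86 (SE 0.47, adjusted p = 0.00209) for CXCL3, the largest of the 5 called ligands with reads in every MCF10A library. Of all 50-base words in their transcripts, 4.57% of CXCL1, 13.4% of CXCL2 and 6.01% of CXCL3 are shared with another gene, which for these were each other, so some reads among them may be split or lost.

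CXCL8 (chr4:74606223-74609433, plus strand), which encodes interleukin-8, gave 18.3 and 16.3 CPM in MCF10A and 218 and 360 CPM in G12V. Here replicate 2 was the higher G12V library, unlike for CXCL1, CXCL2 and CXCL3. CXCL5 (chr4:74861359-74864446, minus strand), with the same strict κB letters in its promoter, had 1 read in 1 MCF10A library and 0 in the other 3 untreated libraries. These 5 ligands span a cluster of 358.8 kb that holds 10 genes in all, and the 5 others (CXCL6, PF4V1, PF4, PPBP and PPBPP2) were too low to be tested, with at most 14 reads in any untreated library, for PF4 in G12V. The 4 cluster genes that rose were thus interspersed with genes at or near 0.

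**Figure D1:**
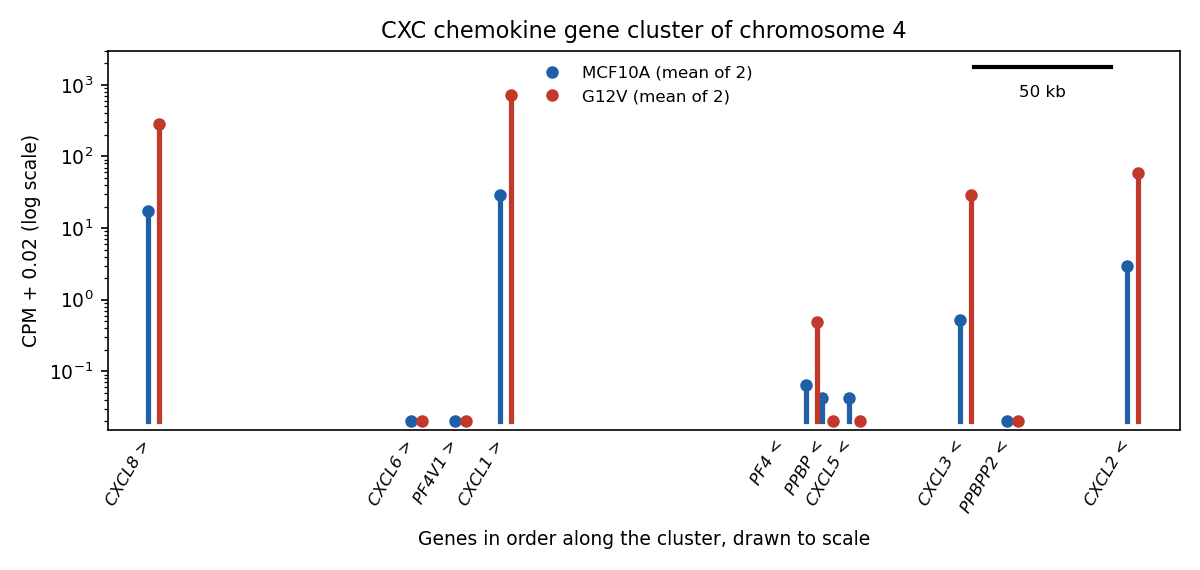
Mean level of each gene of the chromosome 4 chemokine cluster, placed to scale along the chromosome (scale bar 50 kb), in MCF10A (blue) and G12V (red). The vertical axis is CPM + 0.02 on a log scale, lines join each point to the axis base and carry no error, and arrowheads give the strand. CXCL8, CXCL1, CXCL3 and CXCL2 stand high in G12V, while the 6 genes between them lie below 1 CPM in both groups.

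CCL20 (chr2:228678558-228682280, plus strand), outside the cluster, rose from 5.64 and 2.38 CPM to 90.4 and 105 CPM. Its mean was 4.01 ± 2.30 CPM (SD, n = 2) in MCF10A and 97.5 ± 10.0 CPM in G12V, and the log2 fold change was 4.60 (SE 0.43, adjusted p = 0.00331, edgeR's quasi-likelihood test). CCL2 (chr17:32582296-32584220, plus strand) had 1 and 0 reads in MCF10A and 190 and 194 reads in G12V, 8.12 and 8.65 CPM. Set against a floor of 3 counts, CCL2 was at least 62.5-fold higher in G12V (adjusted p = 0.00229, edgeR's quasi-likelihood test). CCL2 was therefore the member with hardly any reads before and a clear level after.

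Neither transmembrane ligand was called. CXCL16 (chr17:4636824-4643223, minus strand) gave 29.5 and 33.5 CPM in MCF10A and 11.97 and 17.4 CPM in G12V. Its libraries did not overlap, with a log2 difference of -1.10 (SE 0.26, 95% interval -1.74 to -0.45), but the adjusted p of 0.0525 (edgeR's quasi-likelihood test) missed the threshold. DESeq2 called it lower, with an adjusted p of 0.00592. CXCL16 overlaps MED11 on the opposite strand, and since the strand setting of the counting is not given, reads of the 2 genes cannot be told apart where they overlap. CX3CL1 (chr16:57406373-57418960, plus strand) had 0 reads in all 10 libraries of both experiments.

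**Figure D2:**
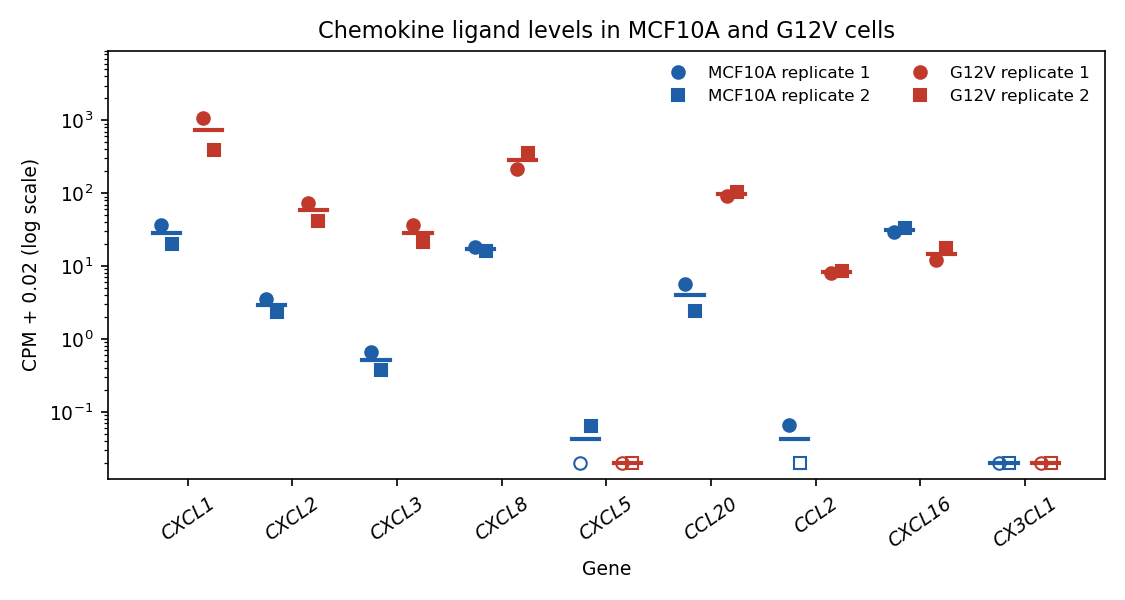
Level of each of the 9 chemokine ligands in the untreated libraries, as CPM + 0.02 on a log scale, with MCF10A in blue, G12V in red, circles for replicate 1, squares for replicate 2, open symbols for 0 reads and a bar at the mean of 2. For CXCL1, CXCL2, CXCL3, CXCL8, CCL20 and CCL2 both G12V libraries lie above both MCF10A libraries, and for CXCL16 both lie below.

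Without MCF10A replicate 1 no gene of the whole table was called by edgeR's quasi-likelihood test. The log2 fold changes of CXCL1, CXCL2, CXCL3, CXCL8 and CCL20 were then 4.16 to 6.37. That of CCL2 was fitted at 10.59 against the 0 reads of MCF10A replicate 2. Its size therefore depends on the prior count and is not a measured fold change. With all libraries the CCL2 value was 8.23, and 6.26 with a prior count of 2. The values of CXCL3, CCL20 and CXCL1 without MCF10A replicate 1 were 6.37, 5.38 and 5.22. Without G12V replicate 1 that of CXCL1 was 3.77.

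The makeup of the ligand pool also differed. The summed level of the 9 ligands was 94.8 and 75.0 CPM in MCF10A and 1505 and 944 CPM in G12V. CXCL16 supplied 31.1% and 44.6% of the ligand reads in MCF10A but 0.796% and 1.85% in G12V. CXCL1 supplied 39.3% and 26.8% in MCF10A and 70.8% and 41.4% in G12V, and CXCL8 supplied 14.5% in the first G12V library and 38.1% in the second. Per kilobase of exon, mean levels in MCF10A ran from CXCL1 (21.0 CPM per kb) through CXCL16 (11.3), CXCL8 (6.69), CCL20 (2.51) and CXCL2 (2.09) to CXCL3 (0.223). In G12V the order was CXCL1 (534 CPM per kb), CXCL8 (112), CCL20 (61.2), CXCL2 (41.7), CXCL3 (13.0), CXCL16 (5.27) and CCL2 (4.34). The places of CCL20 and CXCL2 in MCF10A, and of CXCL16 and CCL2 in G12V, are not separable, since their libraries overlap in range on this scale.

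Of 39 other chemokine ligands, 5 passed the filter on low counts, 24 had 0 reads in every untreated library, and 0 rose. CXCL11, an interferon-induced CXCR3 ligand without the Glu-Leu-Arg motif, fell from 1.00 and 1.85 CPM to 0.0428 and 0 CPM, at least 10.9-fold lower (adjusted p = 0.0136, edgeR's quasi-likelihood test). The other 4, CXCL14, CCL5, CCL22 and CCL28, were not called, with log2 differences of -0.91, 0.52, 0.14 and -0.82. CXCL11 reached the filter in MCF10A alone, and the median of these 4 was -0.34.

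Of 23 chemokine receptors, 7 were tested, 0 rose and 2 fell, both of which reached the filter on low counts in MCF10A alone. CXCR1, a receptor for CXCL8, went from 1.73 and 24.5 CPM in MCF10A to 0 and 0.0446 CPM in G12V, at least 100-fold lower (adjusted p = 0.0346, edgeR's quasi-likelihood test). The MCF10A libraries were far apart, and without MCF10A replicate 2 the log2 fold change shrank from -8.91 to -5.98. CXCR4, the receptor for CXCL12, went from 5.23 and 30.3 CPM to 0.299 and 1.03 CPM (log2 fold change -4.74, -2.98 without MCF10A replicate 2). CXCR2, the main receptor of the risen CXC ligands, was low throughout, at 0.545 and 1.41 CPM in MCF10A and 0.385 and 0.580 CPM in G12V, and was not called. CCR6, the receptor for CCL20, stood between 0.727 and 1.12 CPM in all 4 libraries and was not called. ACKR1, a decoy that binds many chemokines, ACKR2 and CCR10 had log2 differences of 0.60, -0.95 and 3.14 that missed the threshold, the last from at most 0.132 CPM in MCF10A.

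All 18 genes of an NF-κB pathway list were tested, 5 rose and 0 fell, with a median log2 fold change of 0.60. The 5 were NFKB2, the precursor of the p52 subunit (1.13), the inhibitor NFKBIE (1.45), the IκB-family coregulator BCL3 (0.89), the feedback inhibitor TNFAIP3 (1.86) and the IκB kinase subunit IKBKG (1.38). Those that rose thus included inhibitors of the pathway as well as a subunit of its kinase. The subunits NFKB1 and RELA were not called, at 103 and 122 against 97.7 and 125 CPM and at 94.5 and 93.1 against 87.1 and 95.5 CPM. BCL3 lost its call without the filter on low counts, with an adjusted p of 0.0578, and also without MCF10A replicate 2 or without G12V replicate 1.

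Among 15 cytokines and receptors known to induce chemokines, 12 were tested, 3 rose and 2 fell. The median of the 10 that reached the filter on low counts in both groups or neither was 0.24. IL1A rose from 35.6 and 18.7 CPM to 193 and 478 CPM, and IL1B from 10.4 and 3.30 CPM to 285 and 498 CPM. TLR4, the receptor for lipopolysaccharide, rose by 2.78 on the log2 scale. IL1RN, which encodes the secreted antagonist of the interleukin-1 receptor, went from 2.36 and 1.50 CPM to 0 in both G12V libraries, at least 14.7-fold lower. IL1RAP, the accessory chain of the interleukin-1 receptor, fell by 1.24 on the log2 scale, and IL1R1 was not called (17.5 and 29.3 against 33.3 and 39.8 CPM).

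Of 8 other transcription factors that act on chemokine promoters, only the AP-1 subunit FOSL1 was called, higher by 1.18, a call lost without the filter on low counts (adjusted p = 0.0562, edgeR's quasi-likelihood test), with library totals alone, without MCF10A replicate 2 and without G12V replicate 1. ATF3 was higher by 2.21 but not called (adjusted p = 0.145, edgeR's quasi-likelihood test), while DESeq2 and edgeR's exact test called it. Its log2 fold change was 0.65 without G12V replicate 2. The study reports both ATF3 and FOSL1 as up-regulated in G12V cells. The median of the 8 was 0.20. Of 7 genes for proteins that bind and stabilize or destroy cytokine mRNAs, 1 rose and 0 fell (median 0.24). It was ZC3H12A, an endonuclease that degrades cytokine mRNAs, at 19.8 and 19.9 CPM in MCF10A and 205 and 188 CPM in G12V (log2 fold change 3.31, SE 0.18, adjusted p = 7.88e-04, edgeR's quasi-likelihood test). ZFP36, also a decay factor, gave 36.5 and 68.3 CPM against 37.0 and 78.5 CPM and was not called.

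Of 8 proteases that release or cut chemokines, 4 were tested, 0 rose and 1 fell (median -0.19): MMP14, a membrane protease, by 1.82 on the log2 scale. ADAM10 and ADAM17 were not called, with log2 differences of -0.62 and 0.24. Of 7 cytokines often secreted with chemokines, 6 were tested, 4 rose and 0 fell. The median without IL6, which reached the filter in G12V alone, was 2.16. IL6 went from 0 and 0.0440 CPM to 38.6 and 38.2 CPM, at least 286-fold higher. CSF3, the granulocyte colony-stimulating factor, rose from 18.6 and 11.6 CPM to 570 and 442 CPM, and LIF and CSF1 rose by 2.39 and 2.16 on the log2 scale. None of the 25 calls in these lists and the marker lists was kept without MCF10A replicate 1, and that of KRT5 was also lost without G12V replicate 1. The log2 fold changes of IL1A and CSF1 were 2.83 and 1.52 without G12V replicate 2, and those of IL1B and LIF were 6.90 and 2.97 without MCF10A replicate 1. IL1RN and KRT14 reached the filter on low counts in MCF10A alone. Of 5 fibroblast markers 4 were tested. LUM, which reached the filter in G12V alone, was at least 8.94-fold higher, COL1A1 gave 11.5 and 5.86 CPM against 3.25 and 4.64 CPM and was not called, and the summed level was 37.4 to 64.7 CPM in MCF10A and 53.4 to 59.9 CPM in G12V. Of 2 tested endothelial markers, 0 were called. Whether the fall of 4 of the 6 epithelial markers had a part in the ligand values was not tested.

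The genes whose profile over the 4 untreated libraries lay nearest to CXCL8, by distance between centred log2 levels, were TSPAN12, PRCD, LPAR3, PAPPA and FLNC. Their distances were 0.187, 0.252, 0.309, 0.335 and 0.336, while CCL20, the nearest member, stood at 1.07 and rank 96. TSPAN12 and PRCD, the nearest, averaged 0.157 and 0 CPM in MCF10A, near or below the count floor, and 3.99 and 1.21 CPM in G12V. Their distances thus rest on few or no MCF10A reads. The fitted log2 fold change of PRCD was 7.77 against 4.06 for CXCL8, so a small distance did not mean an equal rise. PAPPA, a secreted metalloprotease, averaged 4.65 CPM in MCF10A and 65.2 CPM in G12V. With only 4 libraries these distances describe a shared direction and the higher second G12V library.

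The second comparison asked what activating p53 with Nutlin-3a did to parental cells. No tested ligand was called after 4 h, in an experiment where 23 genes, 0.170%, were called in all. The number of members with an unadjusted p under 0.05 was 0 with edgeR's quasi-likelihood test in the main fit, 0 in its exact test and 0 by DESeq2. With the quasi-likelihood test it was 1 without the filter on low counts, and 3 with the replicate block described below. The median log2 difference of the 6 tested members was -0.20, against 0.0066 over all genes. For 0 of the 6 were the groups separate, a property of 8.07% of all tested genes.

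The DMSO libraries gave 91.7, 368 and 131 CPM of CXCL1 and the Nutlin-3a libraries 69.7, 297 and 112 CPM. Replicate 2 was the highest in both treatments, and the groups overlapped. The log2 difference was -0.30, with a 95% interval of -1.71 to 1.11 when the replicate numbers were not used. Leaving out DMSO replicate 2, the high library of its group, turned this unpaired difference to 0.51.

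Libraries of the same number moved together, as given with the processing, so the values were also taken within each number. CXCL1 was lower with Nutlin-3a in 3 of 3 pairs, with log2 ratios of -0.40, -0.31 and -0.23. Fitted with a term for the number (a replicate block), the log2 difference was -0.31 (95% interval -0.47 to -0.15), with an unadjusted p of 0.00135 from edgeR's quasi-likelihood test but an adjusted p of 0.0636. This block fit called 165 genes, 1.22% of those tested, and 70 of them lower, 0.517%. No member was called in it, and 3 of 6, CXCL1, CXCL2 and CXCL3, had an unadjusted p under 0.05, as did 11.7% of all tested genes.

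CXCL2 gave 13.4, 45.0 and 12.3 CPM with DMSO and 8.31, 37.6 and 10.5 CPM with Nutlin-3a. Its within-pair log2 ratios were -0.69, -0.26 and -0.23, and the blocked difference was -0.37 (95% interval -0.62 to -0.12, adjusted p = 0.173, edgeR's quasi-likelihood test). CXCL3 gave 8.46, 40.2 and 9.98 CPM with DMSO and 4.80, 32.7 and 9.54 CPM with Nutlin-3a. Its ratios were -0.82, -0.30 and -0.06, the first pair being the farthest apart, and the blocked difference was -0.36 (95% interval -0.65 to -0.06, adjusted p = 0.295, edgeR's quasi-likelihood test). The 3 closely related ligands thus had lower values in every pair without passing the adjusted threshold, and so did CCL20. The share of all tested genes that were lower in every pair was not taken.

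CXCL8 gave 65.8, 464 and 127 CPM with DMSO and 58.8, 494 and 136 CPM with Nutlin-3a, lower in the first pair and higher in the others. The blocked log2 difference of CXCL8 was 0.01 (95% interval -0.16 to 0.19). CCL20 gave 39.1, 177 and 50.4 CPM with DMSO and 30.9, 172 and 46.3 CPM with Nutlin-3a, lower in 3 of 3 pairs by 0.34, 0.04 and 0.12 on the log2 scale, with a blocked interval of -0.35 to 0.03. CXCL16 gave 25.2, 21.1 and 30.0 CPM with DMSO and 25.3, 21.6 and 31.8 CPM with Nutlin-3a, and its unblocked interval of -0.38 to 0.46 was the narrowest of the 6. CCL2 had 1, 1 and 0 reads with DMSO and 0 reads in the 3 Nutlin-3a libraries, and CXCL5 had at most 3 reads in any library, so neither was tested.

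**Figure D3:**
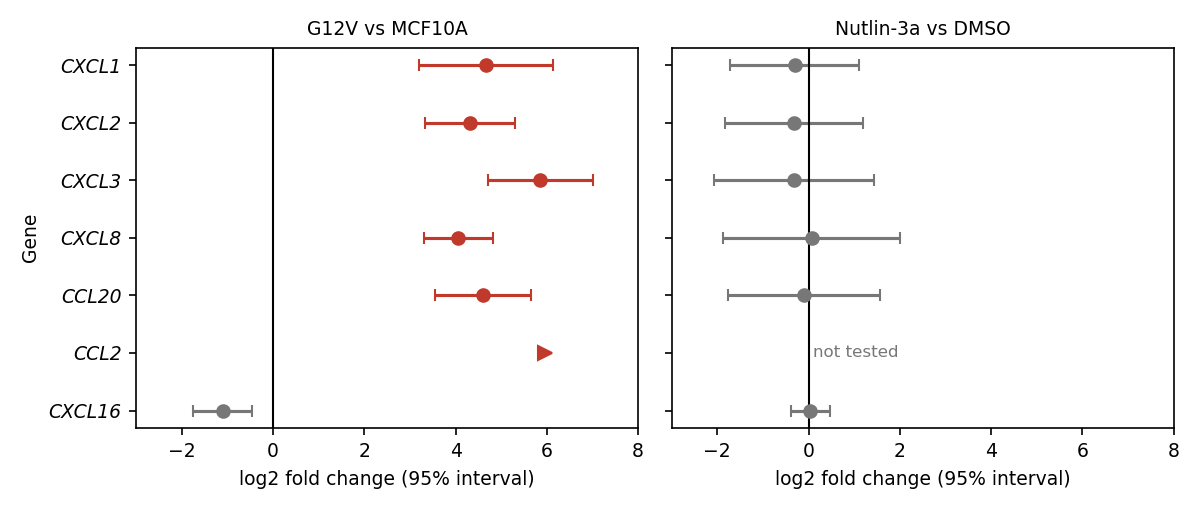
Log2 fold change of each ligand with enough reads for a test in at least 1 comparison, from edgeR's quasi-likelihood fit without a block, with bars for the 95% interval, G12V against MCF10A on the left and Nutlin-3a against DMSO on the right. Called ligands are red and others grey, and the triangle of CCL2 is the lower bound of 62.5-fold on the log2 scale. Intervals on the right span 0 for all 6 tested ligands.

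Levels of 5 ligands differed more between replicate numbers than between treatments. In library 2 of each treatment CXCL1 stood 3.30 times (DMSO) and 3.26 times (Nutlin-3a) above the mean of libraries 1 and 3, and CXCL8 stood 4.81 and 5.07 times above it. CXCL2, CXCL3 and CCL20 showed ratios from 3.49 to 4.56. CXCL16 did not, at 0.764 and 0.756.

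Over all tested genes 33, 0.244%, were at least 2-fold higher in library 2 than in either library 1 or library 3 in both treatments, and 5 of the 6 tested ligands were among them. These counts carry no test, since the libraries were singled out by their ligand levels. Among the other 28 were CSF3, at 578 CPM with DMSO against 204 and 172 CPM, the interleukin-33 receptor IL1RL1, the interleukin-7 receptor IL7R, the NF-κB coregulator NFKBIZ and the decoy receptor ACKR1. Of these 28, 24 were tested in the untreated cells, where 6 were called higher and 3 lower in G12V, against 5.01% and 5.95% of all tested genes.

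Of the 6 epithelial markers, 5 were lowest in library 2 of both treatments, and KRT8 was lowest there with DMSO but not with Nutlin-3a. KRT5 gave 2882 CPM in DMSO library 2 against 4171 and 4714 CPM in the others, KRT14 47.5 CPM against 123 and 99.9 CPM, and EPCAM 43.4 CPM against 91.3 and 75.9 CPM. The summed level of the 6 epithelial markers ranged from 3339 to 5487 CPM with DMSO and from 3576 to 5881 CPM with Nutlin-3a. The summed leukocyte markers ranged from 2.88 to 6.94 CPM and from 2.22 to 8.55 CPM, with 2 of 6 at 0 throughout. The part of these markers in the ligand levels of library 2 was not tested. Without both libraries numbered 2, a setting chosen after seeing the data, the log2 differences between treatments were -0.30 for CXCL1, -0.45 for CXCL2, -0.37 for CXCL3, 0.01 for CXCL8, 0.04 for CXCL16 and -0.22 for CCL20, with 0 called.

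**Figure D4:**
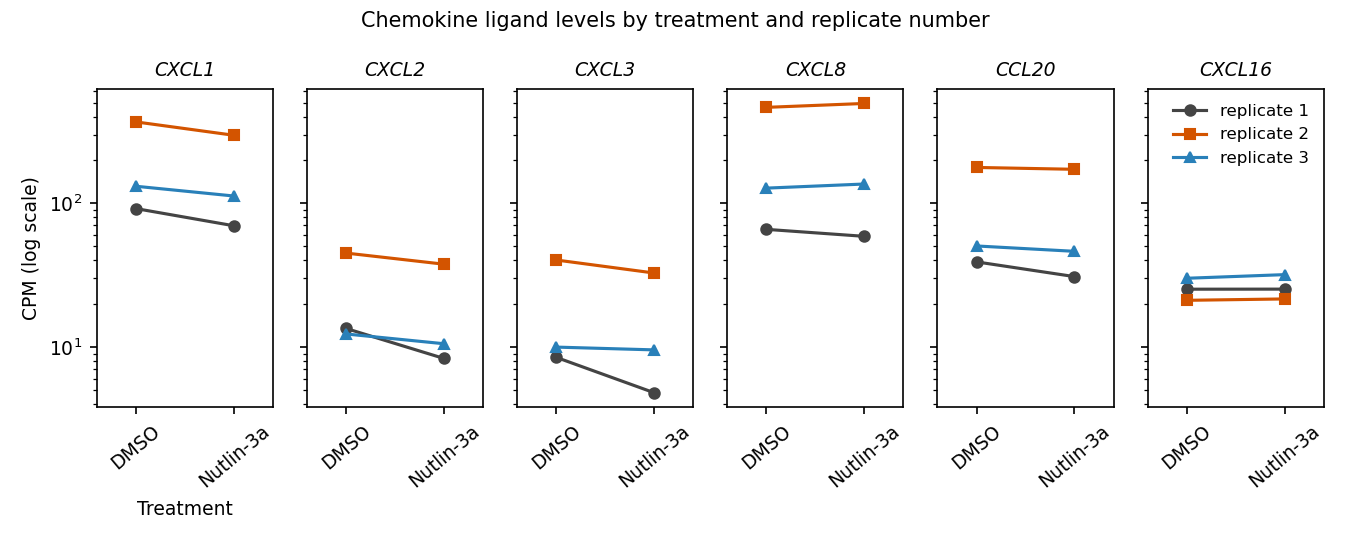
Level of the 6 tested ligands in each library of the Nutlin-3a experiment, in CPM on a log scale, with lines joining the DMSO and Nutlin-3a libraries of the same replicate number. Replicate 2 (orange squares) lies above replicates 1 and 3 for CXCL1, CXCL2, CXCL3, CXCL8 and CCL20 and below them for CXCL16, and the lines of CXCL1, CXCL2 and CXCL3 fall in each pair.

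Over the 6 libraries of this experiment the profiles nearest to CXCL8 were TFPI2 (distance 0.472), RP11-91K9.1 (0.700), CADM3 (0.725), ACKR1 (0.726) and CCL20 (0.738), with CXCL3 at rank 6, CXCL1 at rank 10, CXCL2 at rank 13 and CXCL16 at rank 11487. These ranks restate the high level of the same ligands in both libraries numbered 2.

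Of the other lists, 0 genes were called after Nutlin-3a in the main fit, which had no block. Without the filter on low counts, also with no block, ATF3 was called. Of the 39 other ligands only CCL28 was tested, and of the 23 receptors only ACKR1. In the NF-κB list 17 of 18 were tested and the median log2 difference was -0.06. TNFAIP3 gave 47.8, 127 and 67.8 CPM with DMSO and 57.5, 116 and 55.8 CPM with Nutlin-3a, again highest in library 2. The inducing cytokines and receptors (10 tested) had a median of -0.0038, and IL1B gave 260, 658 and 693 CPM with DMSO and 263, 691 and 859 CPM with Nutlin-3a, high in libraries 2 and 3 alike. The 8 other factors, 7 decay and stability genes, 5 tested proteases and 7 co-secreted cytokines had medians of 0.0042, -0.09, 0.03 and 0.16. With the replicate block 3 of these were called, all higher: the stress-induced factor ATF3, at 6.86, 9.33 and 3.85 CPM with DMSO and 16.0, 16.5 and 7.37 CPM with Nutlin-3a, and the cytokines LIF and CSF1.

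The parental cells of the experiments differed in their ligand levels. Untreated MCF10A gave 16.3 to 18.3 CPM of CXCL8 and DMSO-treated MCF10A 65.8 to 464 CPM. For CXCL1 the ranges were 20.1 to 37.2 CPM and 91.7 to 368 CPM, for CCL20 2.38 to 5.64 CPM and 39.1 to 177 CPM, and for CXCL3 0.352 to 0.636 CPM and 8.46 to 40.2 CPM. CXCL16 stood at 29.5 to 33.5 CPM and 21.1 to 30.0 CPM. IL1B stood at 3.30 to 10.4 CPM and 260 to 693 CPM. In G12V, CXCL8 was at 218 and 360 CPM, CCL20 at 90.4 and 105 CPM and CXCL3 at 36.3 and 21.4 CPM. DMSO replicate 2, at 464, 177 and 40.2 CPM, stood above both G12V libraries for these genes. Its CXCL2, at 45.0 CPM, lay between the G12V values of 74.5 and 42.0 CPM. Its CXCL1, at 368 CPM, lay below the G12V values of 1065 and 391 CPM, and CCL2 had at most 1 read in any DMSO library. The tables were counted over different gene sets and normalized separately, so these levels are set side by side without a test, and solvent, batch and annotation cannot be told apart.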

How the data were processed

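RNA-seq reads were mapped to hg19 with TopHat and counted per gene with HTSeq by the authors, per the labels and the study's methods, and the deposited values are raw counts. The strand setting, overlap mode and annotation of the counting are not given in the sources used here. The labels describe the libraries as biological replicates. From the counts, each experiment was fitted alone in edgeR 4.0.16 (R 4.3.3, limma 3.58.1): filterByExpr, TMM scaling and the quasi-likelihood test over all genes, with Benjamini-Hochberg adjustment. Genes with an adjusted p under 0.05 and a log2 fold change over 0.5 in size were called. CPM used TMM-scaled library sizes, fitted changes a prior count of 0.125, and bounds against 0 a floor of 3 counts per library. Intervals are 95%. DESeq2 1.42.0, edgeR's exact test, other filters and scalings, a replicate block and leaving out each library were alternatives. The code was tested on simulated data.

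In the Nutlin-3a experiment, deviations from the group means of same-numbered libraries correlated at 0.641, 0.649 and 0.676 across genes. Those of other pairs correlated at -0.499 to -0.206, but taking out group means pulls these below 0 where the same-numbered ones are positive. The numbers were taken as pairs, which rests on the correlations of the same-numbered libraries alone.

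Promoters came from RefSeq, exon lengths and shared words from GENCODE on GRCh37, with Biopython 1.88. The 9 members were always named, every called gene of each list was named, and so were all tested chemokine ligands and receptors and the 5 profiles nearest to CXCL8. Members and lists were chosen with earlier results of these data known.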

Additional observations from a re-analysis of the deposited data

How the results depend on the processing

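In the comparison of G12V with MCF10A the number of called genes was 1575, and became 2536 with edgeR's exact test and 4158 with the replicate block. The untreated libraries share only a number, with 2 pairs (deviations correlated at 0.535), so the block is given here alone. It called all 7 tested ligands, CXCL16 included (adjusted p = 0.000536, edgeR's quasi-likelihood test). Leaving out 1 library gave 0 to 2129 called genes and 0 to 7 called ligands, the lowest without MCF10A replicate 1. The cause was not tested. Of 84 alternative values of the ligands' log2 fold changes, 0 changed direction, 6 lost the call, all without MCF10A replicate 1, and 6 gained it, all for CXCL16 (adjusted p from 0.000536 to 0.0484).

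For Nutlin-3a the 23 called genes became 91 with DESeq2, 84 with the exact test, 99 with no filter, 165 with the replicate block in the paired libraries, 7 to 11 with 1 library left out and 4 without both libraries numbered 2. The cause was not tested. The block changed no call of a ligand. Of 90 alternative values of the ligands, 14 changed direction, all with 1 library left out. Then the log2 differences ranged from -1.12 to 0.51 for CXCL1, -1.33 to 0.55 for CXCL2, -1.45 to 0.76 for CXCL3, -1.18 to 1.24 for CXCL8, -1.21 to 0.89 for CCL20 and -0.12 to 0.18 for CXCL16, and 0 were called.

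At these depths CXCL5, CX3CL1 and, in treated cells, CCL2 were at or near the floor of 3 counts, and changes below it were not detectable.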
